A study of Oryza sativa with 6 samples.

Results

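Tryptophan, tyrosine and phenylalanine share the shikimate pathway, and their metabolism was followed in rice embryos through 108 of the 61955 genes in the expression table. The genes were chosen by a rule on their annotation, written with earlier results of these data known. They are those placed on any of 3 KEGG maps (biosynthesis of the 3 aromatic amino acids, tyrosine metabolism and tryptophan metabolism). Genes that were also placed on the maps of other amino acids (alanine, aspartate and glutamate; arginine and proline; glycine, serine and threonine; cysteine and methionine) were left out. Genes with the protein domains of aldehyde dehydrogenases, alcohol dehydrogenases or cytochromes P450 were left out as well. Of 174 genes on the 3 maps, 108 remained and 66 were set aside, 48 for another pathway, 26 for a domain and 8 of them for both. Of the 108, 49 were on the biosynthesis map, 22 on the tyrosine map and 45 on the tryptophan map.

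RNA was measured by sequencing in embryos taken about 15 days after flowering, with 3 samples per line. NIL-D (EG), the giant embryo line, carries the allele of the giant embryo cultivar Dapeimi and is given the genotype CMP-/- in the labels, which do not explain the term. NIL-X (CG), labelled wild type, carries the matching segment of the normal embryo cultivar 187R. By the study's methods both lines came from selfed progeny of a single cross of these cultivars, and both grew in the same 3 field plots. How much of the remaining genome the lines share is not given in the sources used here, so the allele and other segments that differ cannot be told apart. Each value is in TPM, a transcript abundance that corrects for gene length and brings every sample to the same total.

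Plants make all 3 aromatic amino acids from chorismate, the end product of the shikimate pathway in plastids. Chorismate mutase opens the branch to phenylalanine and tyrosine, in which prephenate is aminated to arogenate and then dehydrated or dehydrogenated. Anthranilate synthase opens the branch to tryptophan. Tryptophan is in turn the source of the auxin indole-3-acetic acid, through tryptophan aminotransferases and YUCCA monooxygenases, and of serotonin and melatonin. Tyrosine is broken down through homogentisate, which is also the head group of vitamin E.

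NIL-D replicate 3 stood apart from the other libraries. On log2(TPM + 1), its correlation across the tested genes with NIL-D replicates 1 and 2 was 0.922 and 0.933, against 0.975 between those 2, 0.961 to 0.970 within NIL-X and 0.922 to 0.947 between the lines. Genes are not independent replicates in these correlations. Summed TPM of 14 embryo markers (oleosins, caleosins and peroxygenases, 13 above 0) was 41108 to 42761 in NIL-D and 39450 to 42555 in NIL-X. That of 37 endosperm storage protein genes (36 above 0) was 41776 to 42025 and 41477 to 52788, and that of 19 green tissue markers (15 above 0) was 230.2 to 556.3 and 427.6 to 629.6. The part of endosperm or green tissue RNA in the results below was not tested. The study gives GE a gene number that belongs to OsZS_07G0416900. Levels of OsZS_07G0416900 were 0.1, 0.13 and 0.14 TPM in NIL-D against 0.09, 0.04 and 0.68 in NIL-X. It is annotated here as a cytosolic sulfotransferase, so it does not check the labels.

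In deposited TPM, transcript of these genes as a group was at a similar level in both lines. The 108 genes together held 1982, 2096 and 1996 TPM in NIL-D against 2042, 2078 and 2122 in NIL-X, so the lines overlapped. When each sample was rescaled by its median ratio to the mean of all samples, every NIL-D sum rose and every NIL-X sum fell. The lines then no longer overlapped, with NIL-D above, so the similar level holds for deposited TPM only. A mean of at least 0.5 TPM over the 6 samples, the minimum for testing, was reached by 68 genes. Their median level was 16.8 TPM, against 9.82 TPM for all 21500 genes tested, and 10 of them were at 50 TPM or more. Of the other 40 genes, 22 were listed at 0 in every sample and 18 were above 0 in some sample but under the minimum.

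Of the 68 tested genes, 1 was higher in NIL-D past both limits and 0 were lower. The limits were 0.05 for the limma adjusted p (Benjamini-Hochberg over the 21500 genes) and 1 for the size of the log2 fold change. All fold changes are NIL-D minus NIL-X on log2(TPM + 1), a scale that understates the change of low genes. That is 1.47% of the tested members, beside 0.642% (138 genes) of all tested genes, of which 0.265% (57) were higher and 0.377% (81) lower. The 57 and 81 became 75 and 61 when each sample was rescaled by its median ratio to the mean of all samples. At an unadjusted limma p below 0.05, 12 of the 68 passed (17.6%), against 15.6% of all genes. Of these 3 were higher (4.41%, background 3.6%) and 9 lower (13.2%, background 12%). With 3 samples a line, p-values measure the spread between these samples only.

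Most of the tested members had similar levels in both lines. The absolute log2 fold change was under 0.5 in 52 of 68 (76.5%), against 79.4% of all genes. The log2 fold change was below 0 in 43 of 68 (63.2%), against 69.9% of all genes. Its median was -0.11, beside -0.15 for all tested genes, and median-ratio rescaling moved these medians to 0.055 and 0.00048. Signs of small fold changes are therefore read beside this shift. In 15 members (22.1%) all samples of a line lay on the same side of all samples of the other, against 24.3% of all genes. NIL-D was the higher line in 5 of them (7.35%, background 4.53%) and the lower in 10 (14.7%, background 19.7%). After median-ratio rescaling these counts were 12 higher (17.6%, background 10.8%) and 6 lower (8.82%, background 9.83%). Quantile normalization gave 12 higher (17.6%, background 10%) and 5 lower (7.35%, background 10.1%). Without NIL-D replicate 3, where fewer samples make separation easier, they were 15 (22.1%, background 15.9%) and 20 (29.4%, background 30.7%). That fit called 3 members, 1 higher and 2 lower, beside 2.84% of all genes.

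**Figure D1:**
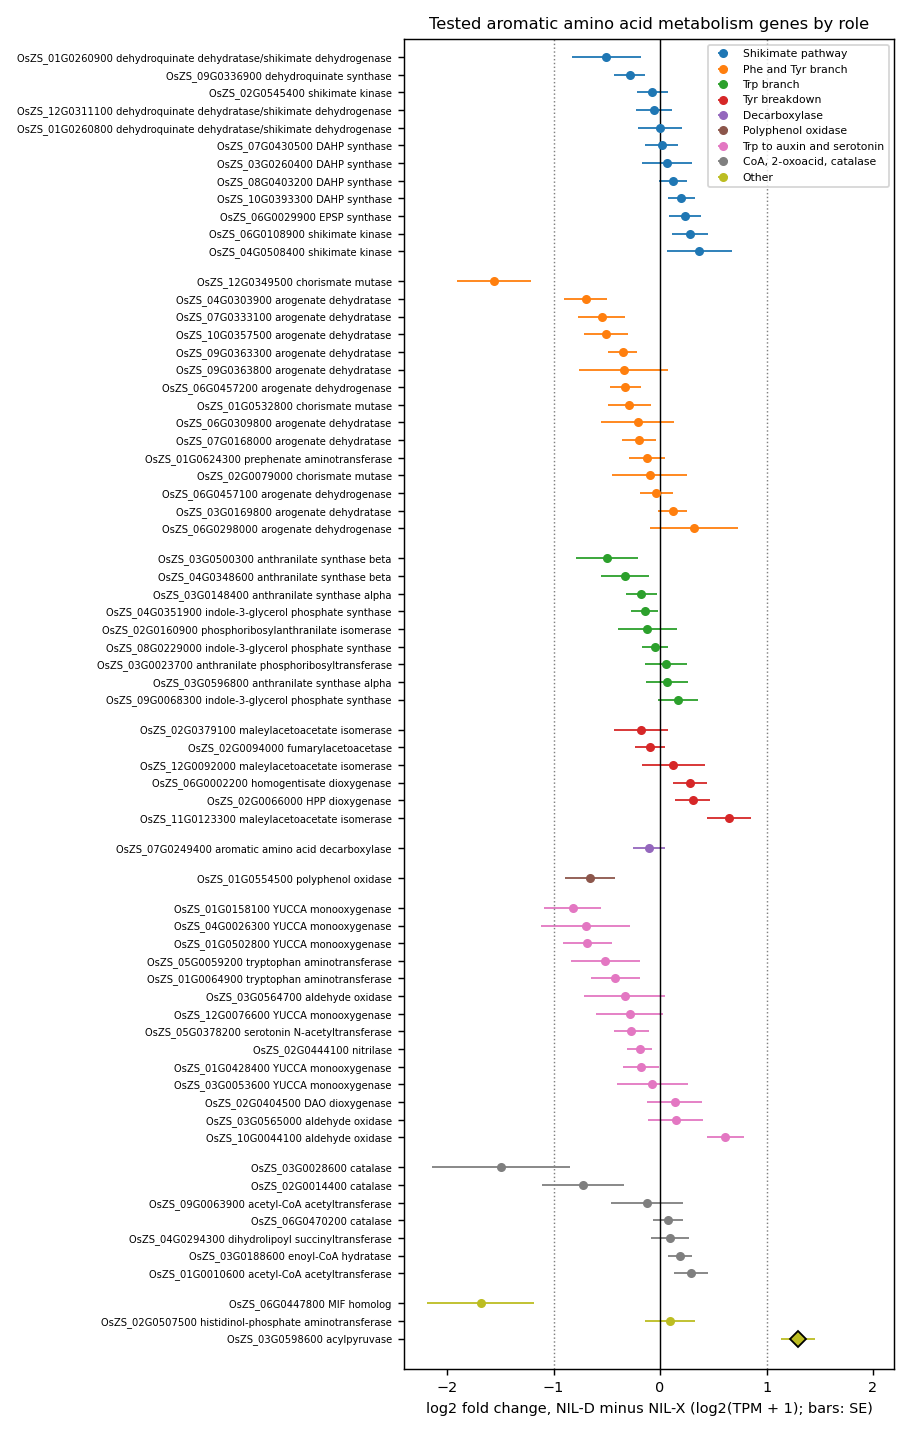
The log2 fold change (NIL-D minus NIL-X, on log2(TPM + 1)) of each of the 68 tested genes, grouped by role, with bars for the standard error from limma and dotted lines at the fold change limits. Of the 4 genes beyond the dotted lines, only the acylpyruvase OsZS_03G0598600 (diamond, 1.29) passed the adjusted p limit.

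The gene that rose was OsZS_03G0598600 on chromosome 3, annotated as a probable mitochondrial acylpyruvase of the FAHD family, to which fumarylacetoacetase also belongs. In mammals, the family member FAHD1 cleaves acylpyruvates. It had 68.59, 75.67 and 52.70 TPM in NIL-D against 25.79, 25.61 and 26.24 in NIL-X. Every NIL-D sample was above every NIL-X sample, with little spread in NIL-X and more in NIL-D. The means were 65.7 ± 11.8 and 25.9 ± 0.32 TPM (SD, n = 3 each), 2.54-fold apart, with a log2 fold change of 1.29 (limma SE 0.16, adjusted p = 0.0252). Without NIL-D replicate 3 the adjusted p was 0.00261, and leaving out any other single sample ended the call (limma adjusted p = 0.0974 to 0.159) with log2 fold changes of 1.19 to 1.30. The other acylpyruvase gene, annotated as FAHD1, was listed at 0 throughout.

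**Figure D2:**
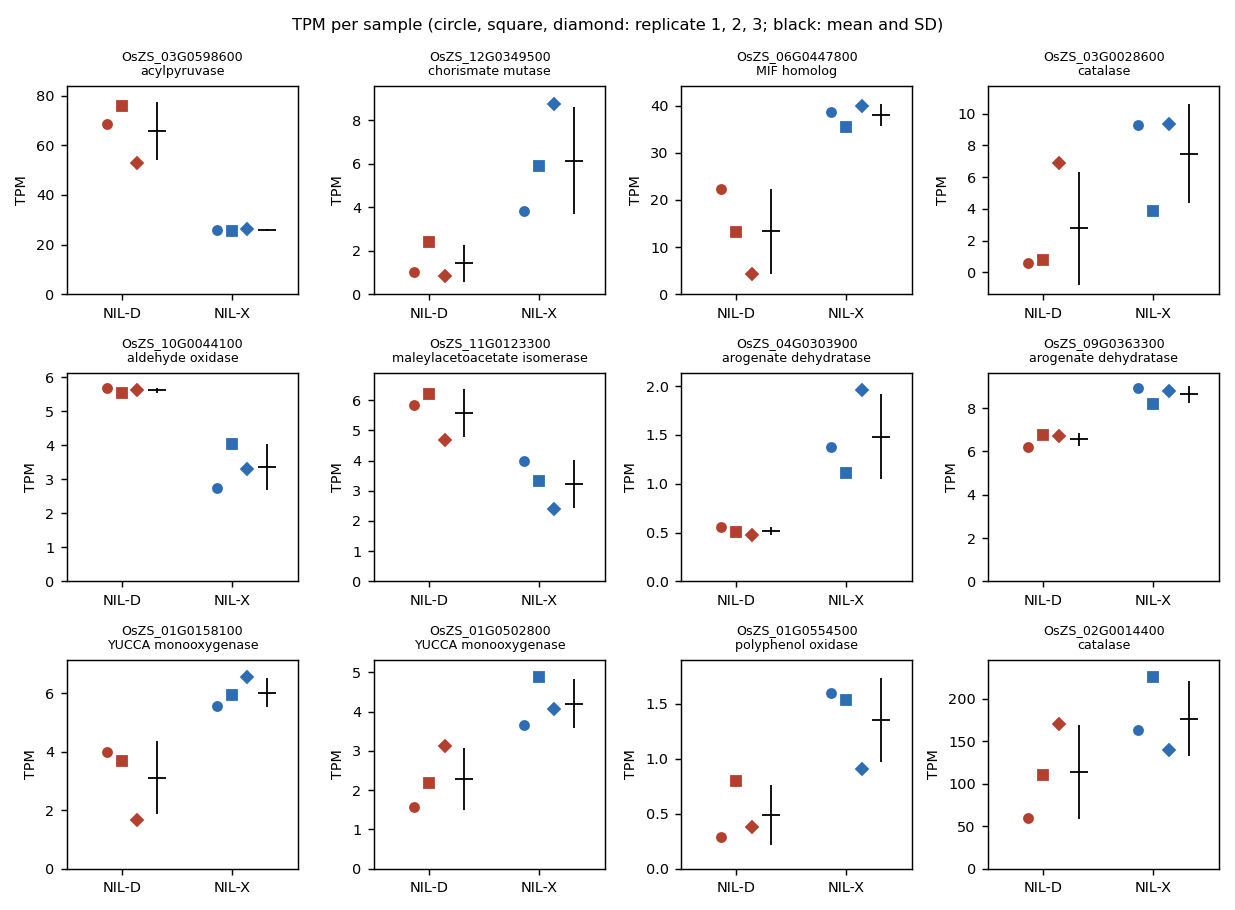
TPM in each sample (points) with the line mean and SD (bars) for 12 of the members named in the text, NIL-D in red beside NIL-X in blue, on a linear axis for each gene. The acylpyruvase OsZS_03G0598600 shows the wide gap between the lines (52.70 or more against 26.24 or less), and the macrophage migration inhibitory factor homolog OsZS_06G0447800 shows the spread within NIL-D (4.33 to 22.42).

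The shikimate pathway to chorismate was represented by 16 genes, of which 12 were tested. Of the 12, 0 were called (0.642% of all genes) and in deposited TPM all overlapped between the lines (24.3% of all genes did not). After median-ratio rescaling NIL-D lay above NIL-X without overlap for the DAHP synthases OsZS_08G0403200 and OsZS_10G0393300. The same held for the shikimate kinase OsZS_06G0108900 and EPSP synthase, and the others of the 12 still overlapped. Beside this, 10.8% of all genes lay above and 9.83% below after rescaling. The median log2 fold change of the 12 was 0.040, with 7 above 0 and 5 below, and 10 above 0 after median-ratio rescaling. The most highly expressed was OsZS_07G0430500 on chromosome 7, a plastid DAHP synthase, which joins phosphoenolpyruvate and erythrose phosphate at the entry of the pathway. It had 103.07, 111.75 and 79.26 TPM in NIL-D against 91.84, 95.36 and 100.58 in NIL-X. The NIL-D samples lay on both sides of the NIL-X range, with a log2 fold change of 0.017 (limma SE 0.16, adjusted p = 0.967). All 4 tested DAHP synthases had fold changes above 0, from 0.017 to 0.20, which without NIL-D replicate 3 held for 3 of the 4. The gene held 48.8 ± 4.24% of DAHP synthase TPM in NIL-D and 50.6 ± 0.76% in NIL-X.

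At the later steps of the pathway the deposited TPM overlapped between the lines. The 3 bifunctional dehydroquinate dehydratase/shikimate dehydrogenase genes summed to 52.0 to 88.5 TPM in NIL-D against 78.1 to 90.6 in NIL-X, the lowest value being NIL-D replicate 3. EPSP synthase, the target of glyphosate, was represented by a single gene with 37.84 to 39.18 TPM in NIL-D against 28.28 to 40.14 in NIL-X. After median-ratio rescaling NIL-D lay above NIL-X without overlap for EPSP synthase (38.8 to 43.6 against 26.7 to 38.1) and for summed DAHP synthase (205.6 to 215.2 against 161.8 to 190.3). No gene carried the KEGG orthology number of chorismate synthase, the last step. Over all members, 33 enzyme steps had summed TPM above 0, of which 22 overlapped between the lines, 3 were higher in NIL-D and 8 lower, with no test. After median-ratio rescaling the counts were 24, 5 and 4. Step sums have no background of their own here. Among all single genes tested, NIL-D was higher without overlap in 4.53% and lower in 19.7%, and in 10.8% and 9.83% after rescaling.

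**Figure D3:**
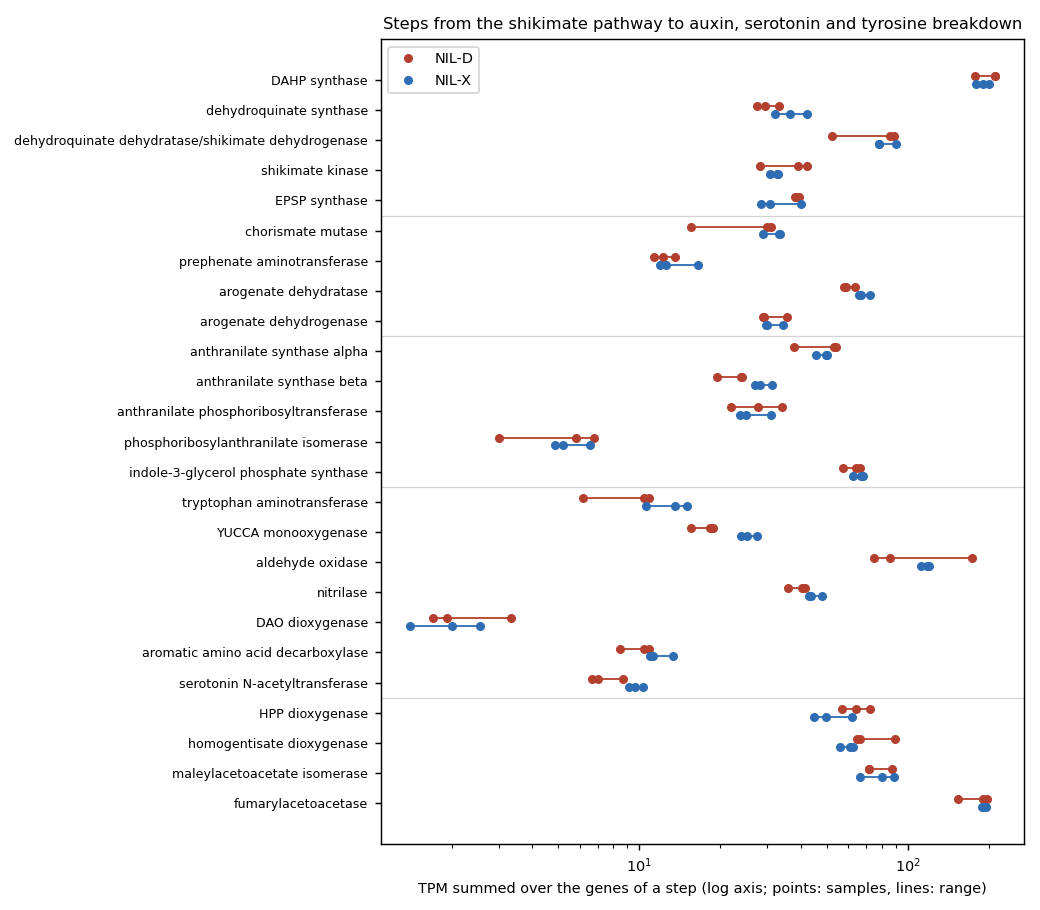
Summed TPM of the member genes at each enzyme step, from the shikimate pathway (top) through the amino acid branches and auxin, serotonin and melatonin to tyrosine breakdown, on a log axis with a point for each sample and a line for the range of each line of rice. At most steps the NIL-D and NIL-X points overlap, while the YUCCA sums lie apart (15.59 to 18.89 against 23.98 to 27.47). NIL-D also lies below NIL-X at arogenate dehydratase, anthranilate synthase beta, nitrilase, aromatic amino acid decarboxylase and serotonin N-acetyltransferase. It lies above NIL-X at homogentisate dioxygenase.

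The phenylalanine and tyrosine branch held 13 of the 43 fold changes below 0. Of its 21 genes 15 were tested and 0 were called, and NIL-D lay below NIL-X with no overlap in 5 (19.7% of all genes) and above in 0 (4.53% of all genes). After median-ratio rescaling, OsZS_06G0457200 and OsZS_07G0333100, both among the 5, overlapped, and NIL-D lay above NIL-X for OsZS_03G0169800. Among all genes, 9.83% then lay below and 10.8% above. The median log2 fold change was -0.29, with 13 of 15 negative against 69.9% of all genes, and -0.13 with 10 of 15 below 0 after median-ratio rescaling. The smallest p in the branch belonged to OsZS_12G0349500, a chorismate mutase with a plastid targeting annotation on chromosome 12. It had 1.01, 2.40 and 0.84 TPM in NIL-D against 3.80, 5.88 and 8.72 in NIL-X. All NIL-D samples were below all NIL-X samples, and the NIL-X samples themselves differed widely. The means were 1.42 ± 0.86 and 6.13 ± 2.47 TPM (n = 3 each), 4.33-fold apart. The log2 fold change of -1.56 (limma SE 0.35, adjusted p = 0.135) passed the fold limit and missed the p limit, as it did in all 12 alternatives in which it was tested (adjusted p 0.0884 to 0.348). The study had itself picked out this gene and the acylpyruvase from the same samples, so their directions here are not independent evidence.

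The other chorismate mutases did not show this pattern. OsZS_02G0079000 on chromosome 2, annotated as the cytosolic isoform, had 21.69, 22.03 and 8.60 TPM in NIL-D against 20.37, 16.41 and 15.49 in NIL-X. NIL-D replicates 1 and 2 were above the NIL-X range and replicate 3 was below it. The plastid isoform OsZS_01G0532800 overlapped between the lines too (6.58 ± 1.37 and 8.24 ± 1.47 TPM, n = 3 each). The cytosolic isoform held 66.4 ± 9.75% of chorismate mutase TPM in NIL-D and 54.9 ± 7.82% in NIL-X, while OsZS_12G0349500 held 5.56 ± 2.37% and 19.3 ± 7.34%. Summed over the 4 genes, chorismate mutase was 15.6 to 30.8 TPM in NIL-D against 28.9 to 33.5 in NIL-X, which overlapped.

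**Figure D4:**
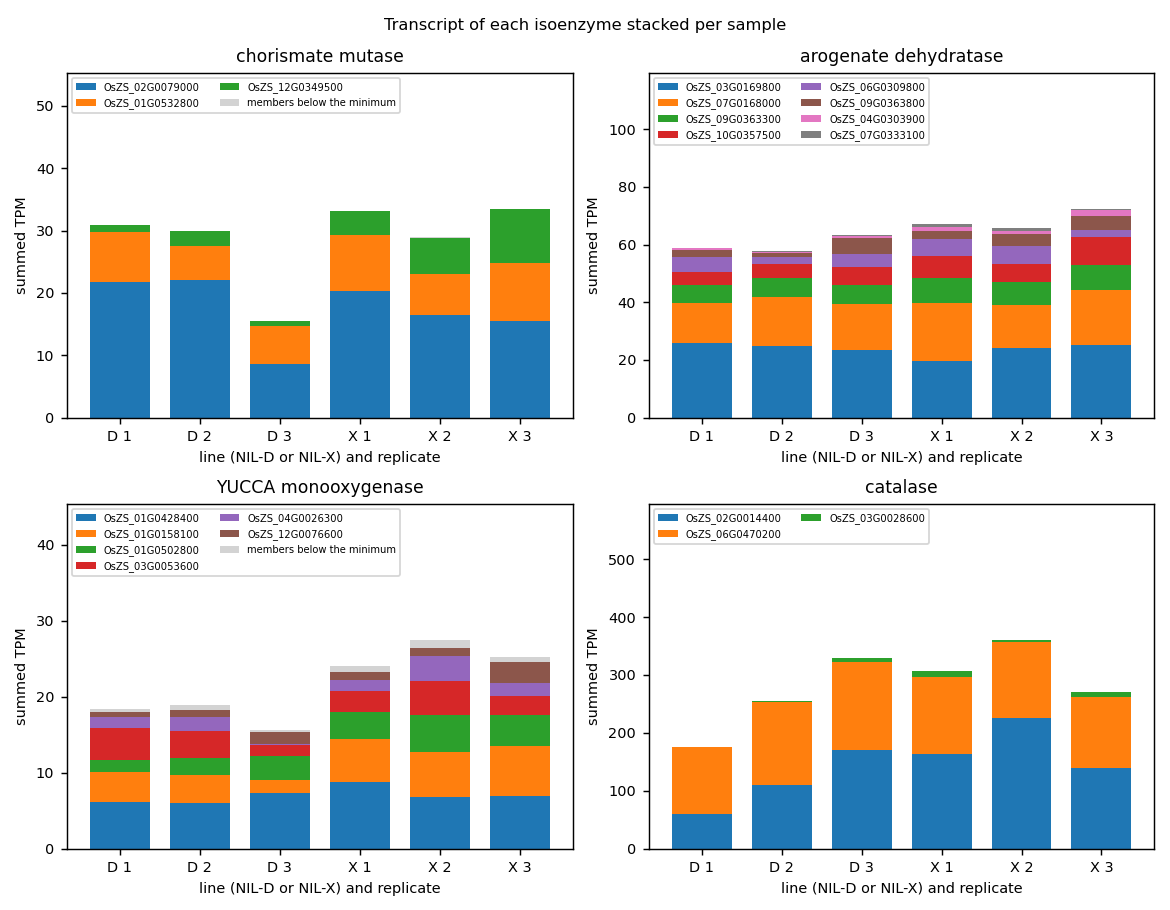
TPM of each isoenzyme stacked for each sample of NIL-D (D) and NIL-X (X) at 4 steps: chorismate mutase, arogenate dehydratase, YUCCA monooxygenase and catalase, with members below the minimum for testing pooled in grey. At the chorismate mutase step, OsZS_12G0349500 held 3.28 to 8.02% of the bar in NIL-D and 11.5 to 26.1% in NIL-X.

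Arogenate dehydratase, which completes phenylalanine, was the largest group of the branch, with 11 genes and 8 tested. The fold change was below 0 in 7 of the 8, also after median-ratio rescaling, quantile normalization and without NIL-D replicate 3, and 0 were called. OsZS_04G0303900 on chromosome 4 had 0.56, 0.51 and 0.48 TPM in NIL-D against 1.38, 1.11 and 1.96 in NIL-X. The lines did not overlap, and the log2 fold change was -0.70 (limma SE 0.20, adjusted p = 0.210). OsZS_09G0363300 on chromosome 9 had 6.21, 6.75 and 6.69 TPM in NIL-D against 8.94, 8.20 and 8.77 in NIL-X. Spread was small in both lines and they did not overlap, with a log2 fold change of -0.35 (limma SE 0.13, adjusted p = 0.292). The most highly expressed member of the branch, OsZS_03G0169800 on chromosome 3, is also an arogenate dehydratase and was the exception in sign. It had 26.01, 24.98 and 23.58 TPM in NIL-D against 19.56, 23.99 and 25.22 in NIL-X, which overlapped (log2 fold change 0.12, limma SE 0.14, adjusted p = 0.70). Its NIL-D samples all lay above its NIL-X samples after median-ratio rescaling. It held 41.6 ± 3.76% of the transcript of this step in NIL-D and 33.5 ± 3.83% in NIL-X. The sum over the step was 57.7 to 63.3 TPM in NIL-D against 65.8 to 72.4 in NIL-X, a gap that closed after rescaling (57.8 to 73.0 and 60.8 to 68.7).

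Arogenate dehydrogenase, which completes tyrosine, had 28.8 to 35.5 TPM over 4 genes in NIL-D and 29.6 to 34.4 TPM in NIL-X. Of its 3 tested genes, OsZS_06G0457200 did not overlap (6.42 ± 0.43 and 8.33 ± 0.77 TPM, n = 3 each), but overlapped after median-ratio rescaling. Its KEGG orthology and its best NR protein hit are arogenate dehydrogenases, while its best Swiss-Prot hit is a zinc finger protein. Prephenate aminotransferase was represented by a single tested gene whose lines overlapped (12.4 ± 1.15 and 13.6 ± 2.49 TPM, n = 3 each).

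In the tryptophan branch, 9 of 11 genes were tested. Of the 9, 0 were called (0.642% of all genes) and all overlapped between the lines (24.3% of all genes did not). The median log2 fold change was -0.12 with 6 of 9 below 0, and 0.028 with 3 of 9 below 0 after rescaling. The most highly expressed gene was OsZS_08G0229000 on chromosome 8, an indole-3-glycerol phosphate synthase, which closes the indole ring. It had 44.32, 41.09 and 36.38 TPM in NIL-D against 41.08, 40.59 and 43.85 in NIL-X. The NIL-D samples spanned the NIL-X range (log2 fold change -0.046, limma SE 0.12, adjusted p = 0.876).

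Anthranilate synthase, the committed enzyme of this branch, is built of an alpha subunit that binds chorismate and a beta subunit that supplies ammonia from glutamine. The alpha subunit genes summed to 48.2 ± 9.20 TPM in NIL-D against 48.2 ± 2.48 in NIL-X (n = 3 each). The beta subunit genes summed to 24.11, 23.86 and 19.43 TPM in NIL-D against 28.21, 26.86 and 31.27 in NIL-X. The sums for the beta subunit did not overlap, also after rescaling (22.4 to 24.7 and 25.4 to 29.7), although each of the 2 genes alone overlapped between the lines. The 4 tryptophan synthase genes were among those set aside, since they are also on another amino acid map, and 0 of the 4 were called.

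From tryptophan to auxin, serotonin and melatonin, 31 genes were placed, of which 14 were tested and 0 called. NIL-D lay below NIL-X without overlap in 3 and above in 1, beside 19.7% below and 4.53% above among all genes. After median-ratio rescaling, OsZS_01G0502800 and the nitrilase overlapped, which left OsZS_01G0158100 below and OsZS_10G0044100 above. Among all genes, 9.83% then lay below and 10.8% above. The median log2 fold change was -0.28 with 11 of 14 below 0 against 69.9% of all genes, and -0.13 with 10 of 14 below 0 after rescaling. YUCCA monooxygenases, which turn indole-3-pyruvate into auxin, were the largest family, with 15 genes. Of these, 6 were tested, all 6 with fold changes below 0 (median -0.48), against 5 of 6 after median-ratio rescaling, 4 of 6 after quantile normalization and 5 of 6 without NIL-D replicate 3.

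Both tested YUCCA genes without overlap in deposited TPM were at low levels. OsZS_01G0158100 on chromosome 1, annotated as YUCCA10, had 3.99, 3.67 and 1.68 TPM in NIL-D against 5.57, 5.92 and 6.54 in NIL-X. All NIL-D samples were lower, and the mean difference was 1.93-fold (log2 fold change -0.82, limma SE 0.27, adjusted p = 0.244). OsZS_01G0502800 on chromosome 1, annotated as YUCCA2, had 1.57, 2.18 and 3.12 TPM in NIL-D against 3.65, 4.89 and 4.07 in NIL-X. The lines were separated by a gap smaller than the spread within NIL-D (log2 fold change -0.68, limma SE 0.23, adjusted p = 0.252). After median-ratio rescaling the lines overlapped for OsZS_01G0502800. Another YUCCA gene, OsZS_01G0717200, has the same length of 2351 bp and the same best protein hit, so reads could have been split between the copies. It was listed at 0 in NIL-D and at 0.05 to 0.22 TPM in NIL-X.

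The family as a whole summed to 18.33, 18.89 and 15.59 TPM in NIL-D against 23.98, 27.47 and 25.21 in NIL-X. No NIL-D sum reached the lowest NIL-X sum, and this also held after rescaling (18.0 to 18.9 against 21.7 to 25.9 TPM). The most highly expressed YUCCA gene, OsZS_01G0428400, overlapped between the lines (6.52 ± 0.73 and 7.53 ± 1.11 TPM, n = 3 each). It held 37.6 ± 8.37% of the family's transcript in NIL-D and 29.7 ± 6.23% in NIL-X. Tryptophan aminotransferases, which act before YUCCA, summed to 6.15, 10.43 and 10.87 TPM in NIL-D against 10.58, 15.06 and 13.53 in NIL-X, which overlapped. Both of their genes had fold changes below 0 in every scaling. Embryos are mixtures of tissues, and fewer cells of a type and less RNA per cell cannot be told apart here.

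Aldehyde oxidases, molybdenum enzymes that can oxidise indole-3-acetaldehyde to auxin and abscisic aldehyde to abscisic acid, differed among themselves. OsZS_10G0044100 on chromosome 10, annotated as aldehyde oxidase 1, had 5.68, 5.54 and 5.62 TPM in NIL-D against 2.73, 4.05 and 3.30 in NIL-X. The NIL-D samples were nearly equal and all above NIL-X, 1.67-fold by the means (log2 fold change 0.61, limma SE 0.17, adjusted p = 0.201). OsZS_03G0564700 on chromosome 3, annotated as aldehyde oxidase 2, was the most highly expressed gene of the auxin group. It had 43.23, 63.72 and 134.37 TPM in NIL-D against 96.82, 91.93 and 84.17 in NIL-X. NIL-D replicates 1 and 2 were below the NIL-X range and replicate 3 above it (log2 fold change -0.33, limma SE 0.38, adjusted p = 0.696). Without NIL-D replicate 3 the log2 fold change was -0.78 and the limma adjusted p 0.0646.

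At the remaining steps placed with auxin and the indoleamines 0 genes were called. The nitrilase gene is annotated as the bifunctional nitrilase/nitrile hydratase NIT4. It is placed here by the tryptophan map, and its part in auxin synthesis was not tested. It had 39.2 ± 2.94 TPM in NIL-D against 44.8 ± 2.74 in NIL-X (n = 3 each) without overlap, but overlapped after rescaling. DAO, a dioxygenase that inactivates auxin, had 2.32 ± 0.88 and 1.99 ± 0.58 TPM (n = 3 each). Serotonin N-acetyltransferase summed to 6.65 to 8.70 TPM in NIL-D against 9.12 to 10.32 in NIL-X, which overlapped after rescaling. Of its 2 genes, the untested OsZS_08G0001300 was at 0 to 0.34 TPM in NIL-D and 0.5 to 0.96 TPM in NIL-X, singled out after its values were seen. The 4 acetylserotonin O-methyltransferase genes, which would complete melatonin, were listed at 0 in all samples. Aromatic amino acid decarboxylases, which make tryptamine and tyramine, had 1 tested gene of 5, a tryptophan decarboxylase with 9.55 ± 1.39 and 10.3 ± 0.093 TPM (n = 3 each). All 5 decarboxylase genes summed to 8.5 to 10.87 TPM in NIL-D and 10.98 to 13.35 TPM in NIL-X, which overlapped after rescaling. Among them the untested OsZS_08G0038100, also singled out after its values were seen, was at 0.03 to 0.07 TPM in NIL-D and 0.08 to 0.41 TPM in NIL-X.

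In tyrosine breakdown all 6 genes were tested and 0 were called (0.642% of all genes). The fold change was above 0 in 4 of 6, with a median of 0.20, and in 5 of 6 after median-ratio rescaling. The most highly expressed was OsZS_02G0094000 on chromosome 2, fumarylacetoacetase, the last step. It had 153.60, 190.90 and 197.12 TPM in NIL-D against 191.41, 194.85 and 189.51 in NIL-X. The lines overlapped, with a single low NIL-D sample (log2 fold change -0.096, limma SE 0.14, adjusted p = 0.761). Homogentisate dioxygenase, which opens the aromatic ring, had 66.41, 64.82 and 89.64 TPM in NIL-D, above the 55.94, 61.08 and 62.45 TPM of NIL-X. OsZS_11G0123300 on chromosome 11, a zeta class glutathione S-transferase placed at the maleylacetoacetate isomerase step, had 5.83, 6.21 and 4.68 TPM in NIL-D against 3.97, 3.33 and 2.39 in NIL-X. The lines did not overlap (log2 fold change 0.65, limma SE 0.21, adjusted p = 0.238), while the 3 genes of the step together did (71.6 to 87.6 and 66.3 to 88.5 TPM).

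Polyphenol oxidases, copper enzymes that oxidise tyrosine and other phenols, had 1 tested gene of 5. OsZS_01G0554500 on chromosome 1 had 0.29, 0.80 and 0.38 TPM in NIL-D against 1.6, 1.54 and 0.91 in NIL-X. The values were close to the minimum for testing and did not overlap (log2 fold change -0.66, limma SE 0.23, adjusted p = 0.269).

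On log2(TPM + 1) with all samples, the lowest log2 fold change of a tested member was that of OsZS_06G0447800 on chromosome 6. This gene was not the lowest with a pseudocount of 0.1. Nor was it the lowest without NIL-D replicate 2, NIL-D replicate 3, NIL-X replicate 1 or NIL-X replicate 2. It encodes a homolog of macrophage migration inhibitory factor, placed on the tyrosine map. In mammals this protein is a cytokine with tautomerase activity on phenylpyruvate. It had 22.42, 13.28 and 4.33 TPM in NIL-D against 38.67, 35.42 and 39.97 in NIL-X. All NIL-D samples were below NIL-X, but they differed widely from each other, and the lowest was NIL-D replicate 3. The means were 13.3 ± 9.05 and 38.0 ± 2.34 TPM (n = 3 each), with a log2 fold change of -1.68 (limma SE 0.50, adjusted p = 0.215). Of 13 alternatives only the fit without NIL-D replicate 3 called it (log2 fold change -1.09, limma adjusted p = 0.0483).

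Among the CoA-ester, 2-oxoacid and catalase genes drawn on the tryptophan map, 7 of 8 were tested and 0 called. NIL-D lay above NIL-X without overlap in 1, beside 4.53% of all genes. This was the enoyl-CoA hydratase gene (37.0 ± 3.36 and 32.3 ± 0.11 TPM, n = 3 each), also without overlap after median-ratio rescaling. OsZS_09G0063900 on chromosome 9, a cytosolic acetyl-CoA acetyltransferase, was the most highly expressed of all 108 genes. It had 276.37, 246.00 and 112.20 TPM in NIL-D against 214.81, 201.18 and 228.70 in NIL-X. NIL-D replicate 3 was far below all others and the other NIL-D samples were above NIL-X (log2 fold change -0.12, limma SE 0.33, adjusted p = 0.880).

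Catalases, which break down hydrogen peroxide and are shared by many pathways, behaved differently from gene to gene. OsZS_02G0014400 on chromosome 2, isozyme A, had 59.84, 110.47 and 169.89 TPM in NIL-D against 163.36, 225.16 and 140.04 in NIL-X. The lines overlapped through NIL-D replicate 3 (log2 fold change -0.73, limma SE 0.38, adjusted p = 0.404). OsZS_06G0470200 on chromosome 6, isozyme B, had 115.16, 143.54 and 152.21 TPM in NIL-D against 133.61, 131.67 and 121.82 in NIL-X (log2 fold change 0.077, limma SE 0.14, adjusted p = 0.820). OsZS_03G0028600 on chromosome 3, isozyme C, singled out after its values were seen, had 0.62, 0.81 and 6.89 TPM in NIL-D against 9.28, 3.86 and 9.34 in NIL-X. NIL-D replicate 3 alone lay within the NIL-X range, with a log2 fold change of -1.49 (limma SE 0.65, adjusted p = 0.331). Without NIL-D replicate 3 it was -2.23 (limma adjusted p = 0.0343). Isozyme A held 43.0 ± 8.79% of catalase TPM in NIL-D and 55.8 ± 5.80% in NIL-X, and isozyme B 56.1 ± 9.66% and 41.7 ± 4.53%.

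Among the 40 genes that were not tested, 3 were listed at 0 in all NIL-D samples and above 0 in all NIL-X samples. They were the YUCCA genes OsZS_12G0295700 (0.15 to 0.36 TPM in NIL-X) and OsZS_01G0717200, and a dihydrolipoyl succinyltransferase gene, OsZS_02G0328800 (0.03 to 0.14 TPM in NIL-X), all singled out after their values were seen. Such values are close to 0, and with TPM alone the number of reads behind them is unknown. Of the 66 genes set aside from the 3 maps, 43 were tested, 1 was called higher (OsZS_02G0528500, an aldehyde dehydrogenase, named after its values were seen; background 0.265%) and 0 lower, with a median log2 fold change of 0.089. The call of OsZS_02G0528500 was lost with no filter on TPM and when any single sample other than NIL-D replicate 3 was left out. The study had itself named this gene as a candidate from the same samples, so its direction here is not independent evidence. Of 9 further genes on the phenylalanine metabolism map, 5 were tested and 0 called, with a median of 0.015.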

How the data were processed

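RNA of 3 NIL-D and 3 NIL-X embryo samples was sequenced, and lines were taken from the labels. By the study's methods, the authors trimmed reads with SeqPrep and Sickle, mapped them to ZS97RS3 with TopHat (at most 2 mismatches) and quantified with RSEM. The submitters' processing notes instead name Bowtie 0.12.2 and the mouse build mm8, and the difference could not be settled. The authors deposited TPM with 2 decimals (the methods name FPKM) and each gene's length in bp. Authors' line means were not used. TPM gives no read counts, so depth and counting error are unknown. limma 3.58.1 (R 4.3.3; lmFit, eBayes with trend, two-sided) was run on log2(TPM + 1), computed here from the deposited TPM, keeping genes whose mean TPM reached 0.5, in place of the count test the methods name. The limits, 0.05 and 1, are the study's. Tables were handled in Python 3.11.15 (numpy 2.4.6, pandas 2.3.3) and plotted with matplotlib 3.10.9. Step sums and shares were not tested.

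The members, roles and lists were chosen with earlier results of these data known. Genes named are OsZS_12G0349500, every called member, the 10 with the smallest p, the most highly expressed of each role with 2 or more tested genes, and the 5 most highly expressed overall. Other genes are given by their levels or by whether their lines overlap, except catalase isozyme C. RefSeq names of another rice assembly matched 32 members. Alternatives were median-ratio rescaling or quantile normalization, a pseudocount of 0.1, a minimum mean TPM of 5 or none, the replicate number as a block, eBayes with no trend and the omission of single samples.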

Additional observations from a re-analysis of the deposited data

How the results depend on the processing

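The 1 member called higher stayed called with a pseudocount of 0.1, no filter or a minimum of 5 TPM, either rescaling and eBayes without trend, but 0 were called with the replicate number as a block (OsZS_03G0598600, limma adjusted p = 0.105) and 0 to 1 when a sample was left out. Members called lower numbered 0 to 2 with a sample left out (2 without NIL-D replicate 3). Over all genes, the 57 higher became 22 with a mean TPM of at least 5, 21 with the block and 15 to 239 without a sample. The 81 lower became 52 with no filter, 35 with a mean TPM of at least 5, 22 with the block and 22 to 372 without a sample. The highest counts came without NIL-D replicate 3. The genes set aside by the rule, 1 of them called (OsZS_02G0528500), had 0 called higher with no filter, 0 with the block and 0 to 3 without a sample, and 0 to 2 called lower without a sample. The cause of these shifts was not tested.

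Members without overlap numbered 12 above and 6 below with median-ratio rescaling, 12 and 5 with quantile normalization, and 15 and 20 without NIL-D replicate 3, where fewer samples make separation easier. These settings and the medians were added after seeing the data. The median log2 fold change of the members turned to 0.055 with median-ratio rescaling and 0.037 with quantile normalization. Of 227 alternative values for the 18 named genes, 208 kept direction and call, and 12 turned in sign, none of them called. OsZS_09G0063900 was 0.055 with median-ratio rescaling and ran from -0.37 to 0.28 with a sample left out. OsZS_08G0229000 was 0.13 with median-ratio rescaling, 0.061 with quantile normalization and -0.11 to 0.029 with a sample left out. OsZS_02G0094000 was 0.083 with median-ratio rescaling and -0.16 to 0.015 with a sample left out. With a sample left out, OsZS_07G0430500 ran from -0.084 to 0.16, OsZS_03G0564700 from -0.78 to 0.028 and OsZS_06G0470200 from -0.0039 to 0.20.

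Replicate numbers were not taken as pairs: the deviations of samples with the same number correlated at 0.0164 to 0.202 (other pairs -0.235 to 0.0593), and the labels tie no number to a plot. TPM without counts limits what can be said of genes near 0.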
